A study of Mus musculus with 6 samples.

Results

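Transcripts of 10 heat shock genes were followed across 6 conditions of RAW264.7 cells, a mouse macrophage line. They are the HSP70 genes Hspa1a, Hspa1b and Hspa8, the HSP90 genes Hsp90aa1 and Hsp90ab1, the cochaperones Dnajb1 and Hsph1, the mitochondrial chaperonin genes Hspd1 and Hspe1, and Hsf1, the heat shock factor. The genes were chosen by name, with earlier results of these data known but with no threshold on their values, and all 10 were among the 24062 genes of the deposited tables. M0 cells received no polarizing agent. M1 cells were exposed for 24 h to LPS at 100 ng/mL together with IFN-γ at 20 ng/mL, and M2 cells for 24 h to IL-4 at 20 ng/mL. RM0, RM1 and RM2 cells were in the same 3 states, then took 10 Gy of gamma radiation and were kept for another 24 h. Whether the non-irradiated cells were also kept for that second period is not given in the sources used here. Each condition is 1 library made from RNA of 5 pooled wells, so no difference between 2 libraries has a replicate check.

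The libraries held 17894937 to 18870516 counts. Of 10 macrophage markers, 9 had at least 10 counts in every library. The T cell genes Cd3e, Cd3g and Cd8a and the epithelial genes Epcam, Krt18 and Cdh1 were at 0 throughout. Cd4, the other T cell marker, had at most 1 count. The highest count of any B cell or erythroid marker was 4, of fibroblast markers 11 and of granulocyte and precursor markers 13. The labels name bone marrow as the tissue beside this cell line, and these markers cannot tell the line from primary macrophages. Counts were scaled by TMM, a method of edgeR that sets libraries to a common level through the genes that change least. The TMM factors of 0.80 for M1 and 0.88 for RM1 lay below those of the other libraries, 1.05 to 1.13. Values of M1 and RM1 therefore depend on the scaling, and values under scaling by library totals are given beside several of them. That scaling moved the median of all genes by -0.44 on the log2 scale in M1 against M0, by -0.25 in RM1 against RM0 and by 0.14 in RM1 against M1.

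HSP70 proteins bind exposed hydrophobic stretches of unfolded proteins and release them in cycles of ATP hydrolysis, which J-domain proteins such as Dnajb1 start and nucleotide exchange factors such as Hsph1 renew. HSP90 proteins act later, on clients that are nearly folded, among them kinases and steroid receptors, and the Hspd1 ring with its Hspe1 lid folds proteins imported into mitochondria. Hsf1 protein is held inactive by chaperones in unstressed cells. On stress it forms a trimer and binds heat shock elements, inverted repeats of the letters GAA, in the promoters of chaperone genes. Hspa8 and Hsp90ab1 are the largely constitutive members of their families, Hspa1a, Hspa1b and Hsp90aa1 the stress-inducible ones.

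The promoter letters that Hsf1 recognises are shown because several of these promoters hold them and because Hspd1 and Hspe1 share theirs. RefSeq promoter windows, 250 bases before to 50 bases after a start on GRCm38.p6, were found for 6 of the 10 genes. They were searched on both strands for a pair of units, GAANNTTC or TTCNNGAA, and for 3 units in a row, which contain overlapping pairs. A pair stood in 15.1% of 32851 promoter windows and 3 units in 0.603%. Hspa1a, Hspa1b, Hsph1, Hspd1 and Hspe1 held a pair in at least 1 window, and Hsph1, Hspd1 and Hspe1 held 3 units. Dnajb1 had 2 windows, and neither held these letters. Such a match is a description of the sequence, not a measured binding site.

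Hspd1 and Hspe1 lie head to head on chromosome 1 and share the stretch between their starts, chr1:55088053-55088082. On the plus strand its 18 capitals hold 4 alternating units. By GENCODE it also falls in the first exon of an alternative Hspd1 transcript, whose start therefore lies beyond it. Of the 2 RefSeq windows of Hspd1, 1 held these units. The windows of the neighbouring genes Hspa1a and Hspa1b on chromosome 17 were the same at 296 of 300 bases, 98.7%, and carried an identical pair at -104 from the start. For these a longer stretch is printed, which both genes carry without a difference. It lies outside the annotated exons, on the minus strand at chr17:34972221-34972350 for Hspa1a and chr17:34959303-34959432 for Hspa1b. Hsph1, on the minus strand of chromosome 5, carried a pair at -33 from its most upstream RefSeq start, in chr5:149636351-149636380. It carried 3 units 36 bases after that start, in chr5:149636287-149636316. Both Hsph1 stretches overlap exons of some GENCODE transcripts. Capitals mark the heat shock element letters.
Hspd1 and Hspe1: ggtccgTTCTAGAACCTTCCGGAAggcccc
Hspa1a and Hspa1b: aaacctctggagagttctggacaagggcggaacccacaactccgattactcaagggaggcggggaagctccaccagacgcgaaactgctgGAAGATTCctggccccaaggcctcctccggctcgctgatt
Hsph1 before the start: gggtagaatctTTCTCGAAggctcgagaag
Hsph1 after the start: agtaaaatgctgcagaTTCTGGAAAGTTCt

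The 10 genes took 0.264% to 0.325% of all counts in the 6 libraries, lowest in RM1 and highest in M0. Their levels per length, in TMM-scaled CPM (counts scaled to a common library size) per kilobase of transcript, ran over more than 4 orders of magnitude in M0, and the constitutive genes led. In M0 the order began with Hsp90ab1 at 539, Hspa8 at 214, Hsp90aa1 at 154, Hspe1 at 132 and Hspd1 at 127. It went on with Hsph1 at 35.5, Hsf1 at 19.9 and Dnajb1 at 8.84. The inducible HSP70 genes came last, Hspa1b at 0.72 and Hspa1a at 0.017. The value of Hspa1a, the lower end of the range, rests on 1 count in M0. Hsp90ab1 stood first in M0, M2, RM0 and RM2. Hspa8 stood first in M1 and RM1, at 692 and 449 against 523 and 382 for Hsp90ab1.

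**Figure D1:**
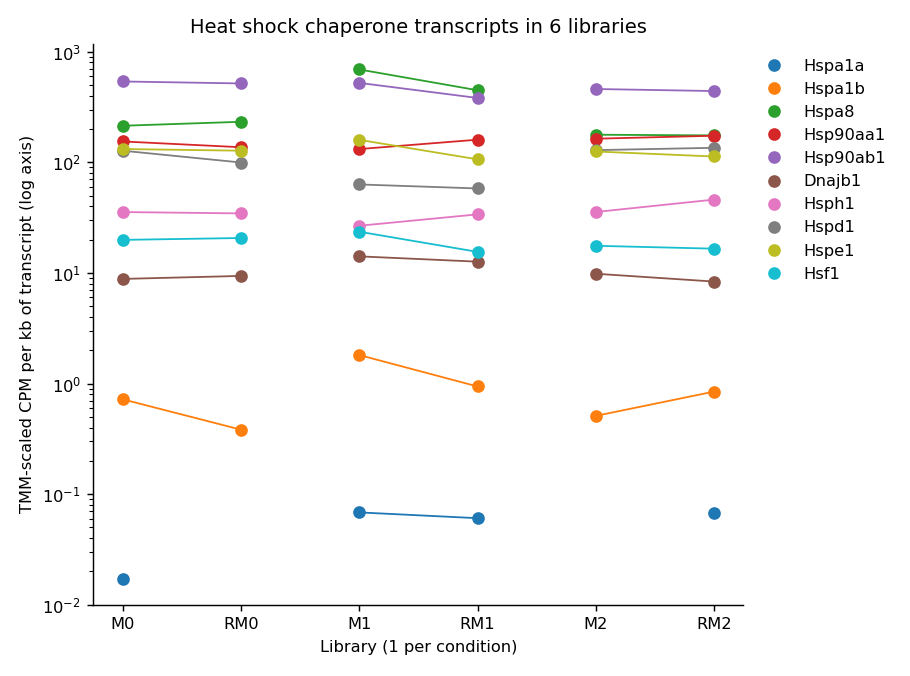
Level of each gene, in TMM-scaled CPM per kilobase of transcript on a log axis, in the 6 libraries, with a line joining each non-irradiated library to its irradiated counterpart. Hspa8 lies above Hsp90ab1 in M1 and RM1 and below it elsewhere, and Hspa1a, with at most 4 counts, has no point in M2 and RM0, where its count was 0.

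Some of these counts are uncertain because other genes hold the same sequence. Of the 100-base windows along its transcript, Hspa8 shared 63.4% with other annotated transcripts, mainly pseudogenes, Hspa1a 56.5%, Hspa1b 49.9%, Hsp90aa1 47.5%, Hspd1 26.9% and Hspe1 22.4%. Hsp90ab1, Dnajb1, Hsph1 and Hsf1 shared none. How the counting treated reads that fit more than 1 gene, and whether it used strand, is not given in the sources used here. The coordinates that the tables list for Hspa8 and Hsp90aa1 cover 43.1% and 44.2% of the annotated genes.

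The first question of the design was what radiation did in each state, and none of the 9 genes that could be tested changed 2-fold in any of them. Hspa1a never reached the 10 counts that a call required. A call needed a 2-fold or larger difference and at least 10 counts in either library, and it compares libraries, not conditions. Of all genes, 1.54% were called in RM0 against M0, 5.34% in RM1 against M1 and 1.97% in RM2 against M2. The 9 genes had median log2 fold changes of -0.05, -0.45 and -0.02 in these comparisons, beside medians over all genes of -0.00084, -0.012 and -0.0025. Intervals given below are exact Clopper-Pearson intervals at 95% and cover counting error only.

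In RM0 against M0 the differences were small apart from Hspa1b. Hspa1b had 40 counts in M0 and 21 in RM0, a log2 fold change of -0.85 with an interval of -1.75 to -0.12. Hspd1 went from 6125 to 4733 counts, a log2 fold change of -0.35 (-0.41 to -0.30), and Hsp90aa1 from 10057 to 8808, at -0.17. The constitutive HSP70 gene Hspa8 lay slightly higher in RM0, at 0.12, with 10177 and 10920 counts. Intervals of Dnajb1, Hsph1, Hspe1 and Hsf1 included 0.

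In RM1 against M1 the 9 genes split, 7 lower and 2 higher. Hspa8 went from 24479 to 17916 counts (-0.62 on the log2 scale, -0.65 to -0.60). Hspe1 stood at 1828 and 1374 counts (-0.58), and Hsf1 at 704 and 522 (-0.60). Hsp90ab1 lay lower too, at 19482 and 16058 counts (-0.45), as did Hspa1b at 75 and 44 (-0.92, with an interval of -1.51 to -0.39). The exceptions were Hsph1, at 1502 and 2147 counts (0.34), and the inducible HSP90 gene Hsp90aa1, at 6398 and 8768 counts (0.28, but 0.12 with a GC trend removed). So the inducible and constitutive HSP90 genes lay on opposite sides of 0, and their ratio of counts within a library, which no scaling touches, was 0.328 (0.319 to 0.338) in M1 and 0.546 (0.532 to 0.561) in RM1. Hspd1 was at -0.12 under TMM and at 0.022 with library totals.

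In RM2 against M2 the largest values belonged to Hspa1b and Hsph1. Hspa1b had 29 and 47 counts, a log2 fold change of 0.69 whose interval of 0.031 to 1.45 nearly reached 0. Hsph1 had 2744 and 3473 counts (0.37, with an interval of 0.30 to 0.44). Dnajb1 had 598 and 497 counts (-0.23). The other 6 genes lay between -0.15 and 0.09. In these libraries Hsph1 was thus higher after irradiation by a similar amount in both polarized states. In the unpolarized state it was not, with 2680 and 2574 counts (-0.04). The spread over all genes fitted in the model below gives a difference of 2 libraries a log2 SD of 0.22. Whether the change of Hsph1 differs between states was not tested.

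**Figure D2:**
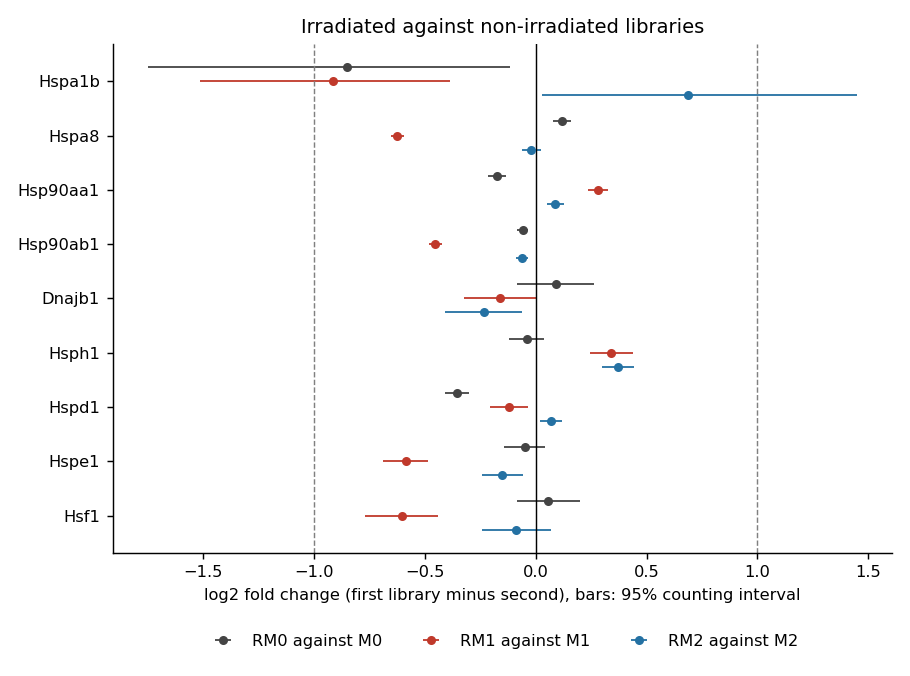
Log2 fold change of each irradiated library against its non-irradiated counterpart for the 9 genes with at least 10 counts, with bars for the 95% counting interval and dashed lines at 2-fold. No point passes a dashed line, Hspa1b lies left of 0 in RM0 and RM1 and right of 0 in RM2, and Hsph1 lies right of 0 in RM1 and RM2.

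A model of state and irradiation over 6 libraries, with edgeR's quasi-likelihood test, asked for an effect of radiation common to all 3 states. In this model the states stand in for replicates, 2 residual degrees of freedom remain, and an effect that differs between states counts as spread. None of the 9 genes tested passed a Benjamini-Hochberg adjusted p of 0.05 in edgeR's test, beside 55 of 11574 genes or 0.475%, and none passed with DESeq2. Adjusted p-values ran from 0.335 to 0.825, and 1 gene, Hspe1, was under 0.05 without adjustment (log2 fold change -0.26, SE 0.12, unadjusted p = 0.0489 in edgeR's test), beside 14.7% of all genes. The interval of the irradiation term was -0.50 to 0.15 for Hspa8, -0.017 to 0.47 for Hsph1 and -1.11 to 0.33 for Hspa1b, so a 2-fold change lay outside the first 2 of these intervals and inside the third. Hspa8 and Hsp90aa1 turned direction when M1 and RM1 were left out, from -0.17 to 0.05 and from 0.07 to -0.04.

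The second question was how polarization set the chaperones, and most calls came with M1. Of the 9 genes, 3 were called in M1 against M0, beside 22.7% of all genes, so this count alone does not set the chaperones apart. Hspa8 and Hspa1b were higher and Hspd1 lower. In RM1 against RM0, where 14% of all genes were called, Hspa1b was the 1 gene called. With library totals Hspa1b lost both calls (0.86 and 0.98) and Hspd1 was the gene called in RM1 against RM0 (-1.03). In the additive model 4 of 9 passed for the M1 term, 3 higher and 1 lower, beside 47.6% of all genes, 23.3% higher and 24.3% lower. With scaling by library totals 1 gene passed as higher and 4 as lower, beside 9.43% and 41% of all genes.

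Hspa8, the constitutive HSP70 of the cytosol, showed the largest change of the 9 genes in M1 against M0. Its TMM-scaled CPM in M0, M1 and M2 was 513, 1656 and 426, and in their irradiated counterparts 557, 1075 and 420. Both M1 libraries stood above the other 4, which lay within 420 to 557. Only M2 and RM2, next to each other in the order of levels, were within counting error of each other. M1 was 3.23-fold above M0, a log2 fold change of 1.69 (1.66 to 1.72), and RM1 was 1.93-fold above RM0 (0.95, with an interval of 0.91 to 0.98). The M1 term was 1.33 (SE 0.18, adjusted p = 0.000218 in edgeR's quasi-likelihood test), and it passed with library totals too, at 0.98 (adjusted p = 0.00109 in edgeR's test). Hspa8 made up 42.7% of the counts of the 10 genes in M1 and 36% in RM1, against 15.2% to 19.5% in the other libraries.

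The inducible HSP70 genes were barely expressed. Hspa1a had 1, 3 and 0 counts in M0, M1 and M2 and 0, 3 and 4 in RM0, RM1 and RM2. These counts are at the level at which no change can be stated, and a library with 0 counts allows up to 3. Hspa1b had 40, 75 and 29 counts without irradiation and 21, 44 and 47 with it, in the same order of states, so its TMM-scaled CPM ran from 1.07 in RM0 to 5.07 in M1. It was 2.44-fold higher in M1 than in M0 (1.29 on the log2 scale, with an interval of 0.76 to 1.92) and 2.33-fold higher in RM1 than in RM0 (1.22, with an interval of 0.52 to 2.12). The M1 term was 1.30 (SE 0.40, adjusted p = 0.0198 in edgeR's quasi-likelihood test), but with library totals it was 0.94 and did not pass (adjusted p = 0.0877 in edgeR's test). With the 2 genes summed, the counts were 41, 78 and 29, and 21, 47 and 51.

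Among the cochaperones of HSP70, Dnajb1 moved with M1 polarization. Dnajb1, a J-domain protein that delivers substrates to HSP70 proteins, had 26.5, 42.3 and 29.5 CPM in M0, M1 and M2, and 28.2, 37.9 and 25.05 CPM after irradiation. M1 and RM1 were the highest, within counting error of each other. Its M1 term was 0.55 (SE 0.13, adjusted p = 0.00616 in edgeR's quasi-likelihood test) and 0.21 with library totals, where it did not pass (adjusted p = 0.254 in edgeR's test).

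Hsph1, the HSP110 exchange factor, had 135, 102 and 135 CPM in M0, M1 and M2, and 131, 129 and 175 CPM in RM0, RM1 and RM2. M1 was the lowest library and RM2 the highest, while M0, RM0 and M2 were close together. The M1 term was -0.22 (SE 0.13, adjusted p = 0.191 in edgeR's quasi-likelihood test), and it passed with library totals at -0.57. Reads of Hsph1 per read of Hspa8, a ratio free of scaling, fell to 0.0614 (0.0582 to 0.0646) in M1 and 0.12 (0.115 to 0.125) in RM1, from 0.263 in M0 and 0.236 in RM0.

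The HSP90 genes differed less. Hsp90ab1 had 1357, 1318 and 1161 CPM in M0, M1 and M2, and 1303, 963 and 1112 CPM in RM0, RM1 and RM2, with RM1 the lowest. Hsp90aa1 had 507, 433 and 537 CPM without irradiation and 449, 526 and 571 CPM with it, with M1 the lowest and RM2 the highest. Neither passed for the M1 term. It was -0.24 for Hsp90ab1 (interval -0.58 to 0.11, adjusted p = 0.233 in edgeR's test), which passed with library totals at -0.58. It was -0.002 for Hsp90aa1 (interval -0.32 to 0.32, adjusted p = 0.992 in edgeR's test), and its sign turned with DESeq2's size factors.

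Hspd1 and Hspe1, the ring and lid of the mitochondrial chaperonin, parted in M1. Hspd1 had 309, 153 and 313 CPM in M0, M1 and M2, and 242, 141 and 328 CPM in RM0, RM1 and RM2. Both M1 libraries were below the other 4. M1 was 2.02-fold below M0, a log2 fold change of -1.01 (-1.08 to -0.94), a call that sat at the 2-fold limit and was lost with DESeq2's size factors and after removal of a GC trend (-0.93). RM1 against RM0 was -0.78 (-0.85 to -0.71). The M1 term was -0.90 (SE 0.14, adjusted p = 0.000409 in edgeR's quasi-likelihood test) and stayed past the threshold with library totals, at -1.25.

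Hspe1 had 102, 124 and 97.1 CPM without irradiation and 98.6, 82.4 and 87.5 CPM with it, in the same order of states. M1 was the highest library and RM1 the lowest, though RM1 was within counting error of RM2. Hspe1 was 0.28 higher on the log2 scale in M1 than in M0 under TMM and lower with library totals (-0.17). It lay at -0.26 in RM1 against RM0. The M1 term was 0.014 (interval -0.30 to 0.33, adjusted p = 0.946 in edgeR's test) and turned to -0.34 with library totals. There were 3.02 reads of Hspd1 per read of Hspe1 in M0 (2.88 to 3.18), 3.22 in M2 and 2.45 in RM0, but 1.24 (1.16 to 1.32) in M1 and 1.71 (1.60 to 1.83) in RM1, and 3.75 (3.56 to 3.96) in RM2. The genes with the shared 18 letters between their starts therefore did not change in step. Up to 26.9% of Hspd1 and 22.4% of Hspe1 windows also match other transcripts, and their part in this ratio was not tested.

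**Figure D3:**
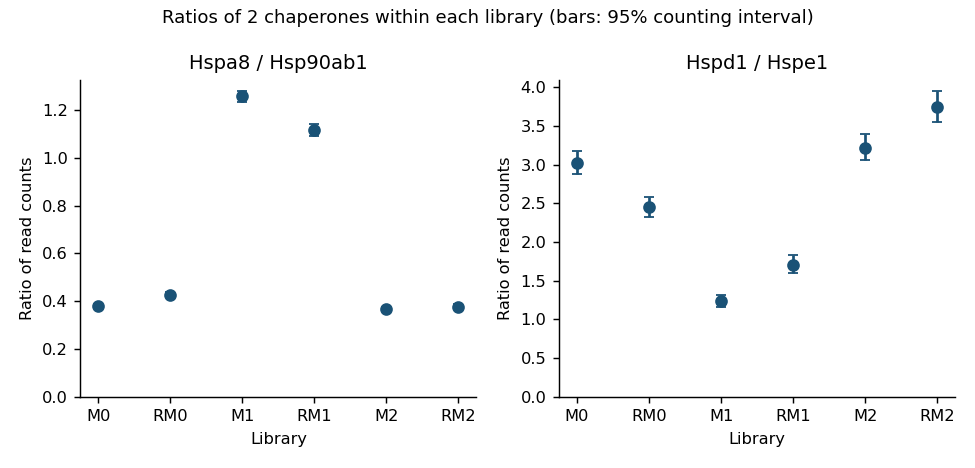
Ratio of read counts of Hspa8 to Hsp90ab1 and of Hspd1 to Hspe1 within each library, with 95% counting intervals. The first is 1.26 in M1 and 1.12 in RM1 and at most 0.428 elsewhere, and the second is lowest in M1 and RM1.

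Hsf1, the transcription factor itself, varied 1.52-fold between its highest and lowest library. It had 797, 704 and 721 counts in M0, M1 and M2, and 819, 522 and 664 counts after irradiation, or 31.3 to 47.6 CPM. M1 was the highest library and RM1 the lowest after scaling, though RM1 was within counting error of RM2. Hsf1 was 0.24 higher in M1 than in M0 under TMM but lower with library totals (-0.20), and -0.42 in RM1 against RM0. The M1 term was -0.08 (interval -0.43 to 0.27, adjusted p = 0.718 in edgeR's test), and with library totals it passed at -0.43. Transcript levels do not show how much Hsf1 protein was active.

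After M2 polarization 1 chaperone reached a 2-fold call, and only in irradiated cells. None of the 9 was called in M2 against M0, where 1.44% of all genes were called, and their log2 fold changes lay between -0.47 and 0.15. In RM2 against RM0, with 2.61% of all genes called, 1 was called, Hspa1b, with 21 and 47 counts (1.07, interval 0.37 to 1.96). Hspd1 (0.44), Hsph1 (0.41) and Hsp90aa1 (0.35, but 0.13 with a GC trend removed) were also higher in RM2 than in RM0, and Hspa8 lower (-0.41). None of the 9 passed for the M2 term in edgeR's quasi-likelihood test or in DESeq2, with adjusted p-values of 0.516 to 0.988. None had an unadjusted p under 0.05 in edgeR's test, beside 10.1% of all genes. Over all genes 22 passed, or 0.19%.

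**Figure D4:**
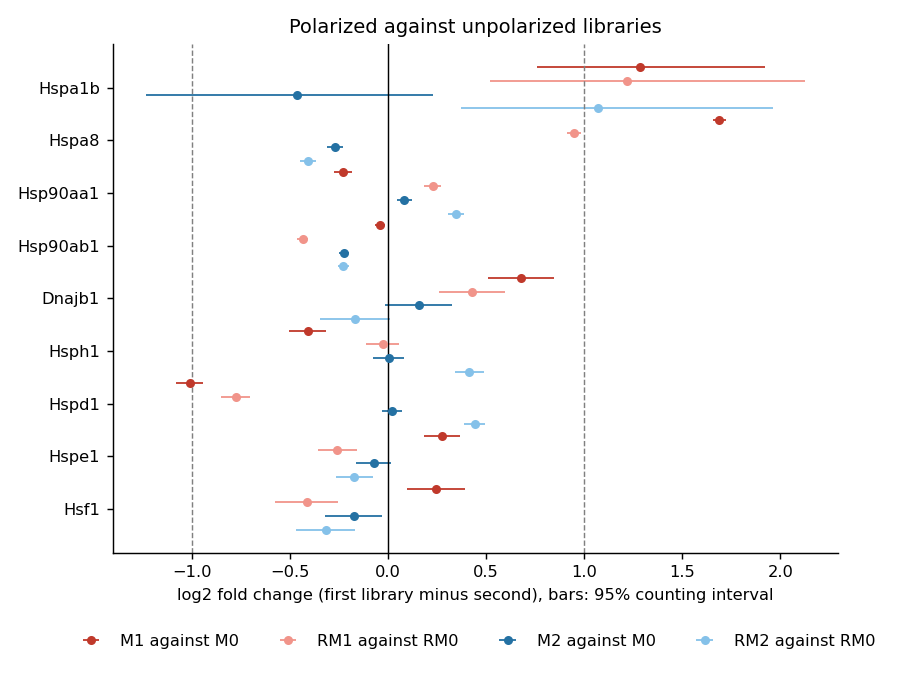
Log2 fold change of each polarized library against the unpolarized library of the same irradiation status for the 9 genes with at least 10 counts, with bars for the 95% counting interval and dashed lines at 2-fold. Hspa8 and Hspa1b lie far to the right and Hspd1 to the left in the M1 comparisons, and among the M2 points Hspa1b in RM2 against RM0 alone passes a dashed line.

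The comparisons also allow the M1 response to be set beside itself in irradiated cells. The difference of the log2 fold changes, irradiated minus non-irradiated, has no test here beyond counting error. For the M1 response it reached 1 in none of the 9 genes, beside 6.44% of all genes, and for the M2 response in 1, Hspa1b at 1.54 (counting SE 0.52), beside 2.09%. The M1 response of Hspa8 was smaller by 0.74 in irradiated cells (-0.74, counting SE 0.024). Hsf1 (-0.66), Hspe1 (-0.53), Hsp90ab1 (-0.39) and Dnajb1 (-0.25) gave negative differences, Hsp90aa1 (0.45), Hsph1 (0.38) and Hspd1 (0.23) positive ones. These differences are under TMM and depend on the processing. Their counting SEs leave out the spread between libraries. In the additive model that spread gave a single difference of 2 libraries a log2 SD of 0.22. With library totals the M1 responses of Hspa8 were 1.25 without irradiation and 0.70 with it. With a GC trend removed those of Hsp90aa1 were -0.12 and 0.09. For Hspa1b the M1 responses of 1.29 and 1.22 were alike within counting error (-0.07, counting SE 0.48).

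A wider list of 78 chaperones and cochaperones, chosen by function with earlier results of these data known, places these genes in their network. Of 67 tested, none passed for the irradiation term or the M2 term in edgeR's quasi-likelihood test over all libraries. Without M0 and RM0, 2 were higher for irradiation, beside 3.53% of all genes. Without M1 and RM1, 1 was higher and 1 lower, beside 2.4% and 2.27% of all genes. For the M1 term 15 were higher and 17 lower, close to the shares of all genes given above. With library totals the split was 6 higher and 33 lower, where 50.5% of all genes passed. The list's median M1 term was 0.04 beside -0.02 over all genes, and -0.31 beside -0.36 with library totals.

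The HSP70 and HSP90 of the endoplasmic reticulum, Hspa5 and Hsp90b1, were higher with M1 under TMM. Hspa5 had 45017 counts in M0 and 112452 in M1 (1.75 on the log2 scale) and 35136 in RM0 and 71823 in RM1 (1.26), with an M1 term of 1.51 (SE 0.19, adjusted p = 0.000119 in edgeR's quasi-likelihood test). Hsp90b1 had 15130 and 23328 counts (1.05) and 11556 and 22606 (1.20), with adjusted p = 0.000132 in edgeR's test. Hsbp1, a small protein that binds heat shock factors, was 1.04 higher in M1 than in M0, with an M1 term of 0.81 (adjusted p = 0.000838 in edgeR's test). The number of calls depends on the scaling. Under TMM 3 of 67 other chaperones were called higher in M1 against M0 and 3 lower, beside 22.7% of all genes. With library totals 1 was called higher and 12 lower. In RM1 against RM0, 2 of 68 were called higher and 2 lower under TMM, beside 14% of all genes. With library totals 1 was higher there and 5 lower. The shares of all genes called with library totals were not worked out, so these counts do not set the chaperones apart. Under that scaling the median of the 67 in M1 against M0 was -0.53, beside -0.46 over all genes. In RM1 against RM0 the median of the 68 was -0.25, beside -0.25 over all genes.

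The largest falls were in regulators of HSP70. Bag2 had 418 counts in M0 and 91 in M1 (-1.76) and 339 and 131 in RM0 and RM1 (-1.13), with an M1 term of -1.44 (SE 0.19, adjusted p = 0.000143 in edgeR's quasi-likelihood test). Bag5 had 373 and 78 counts in M0 and M1 (-1.81) and 296 and 140 in RM0 and RM1 (-0.84), with an M1 term of -1.32 (adjusted p = 0.000723 in edgeR's test). Of 12 such exchange factors and regulators, 2 were higher and 3 lower for the M1 term, beside 23.3% and 24.3% of all genes.

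Of 10 cochaperones of HSP90, 5 passed as lower and 1 as higher for the M1 term under TMM, with a median of -0.36. Over all genes 47.6% passed, 24.3% as lower and 23.3% as higher, so a count in so small a group does not set it apart. With library totals 41% of all genes passed as lower. Chordc1 had 1520 counts in M0 and 492 in M1 (-1.20) and 1402 and 934 in RM0 and RM1 (-0.35), with an M1 term of -0.77 (adjusted p = 0.00464 in edgeR's test). Of 17 J-domain cochaperones tested 5 were higher and 5 lower, and of 14 subunits of the CCT chaperonin and prefoldin 3 were higher and 4 lower. The few other calls at 2-fold under TMM were in genes with low counts. Hspa2 had 43 counts in RM0 and 16 in RM1 (-1.11), Dnaja4 had 4 in M0 and 12 in RM0 and 6 in M2 and 17 in RM2, and Hsf4 had 13 in M2 and at most 5 in the other libraries.

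**Figure D5:**
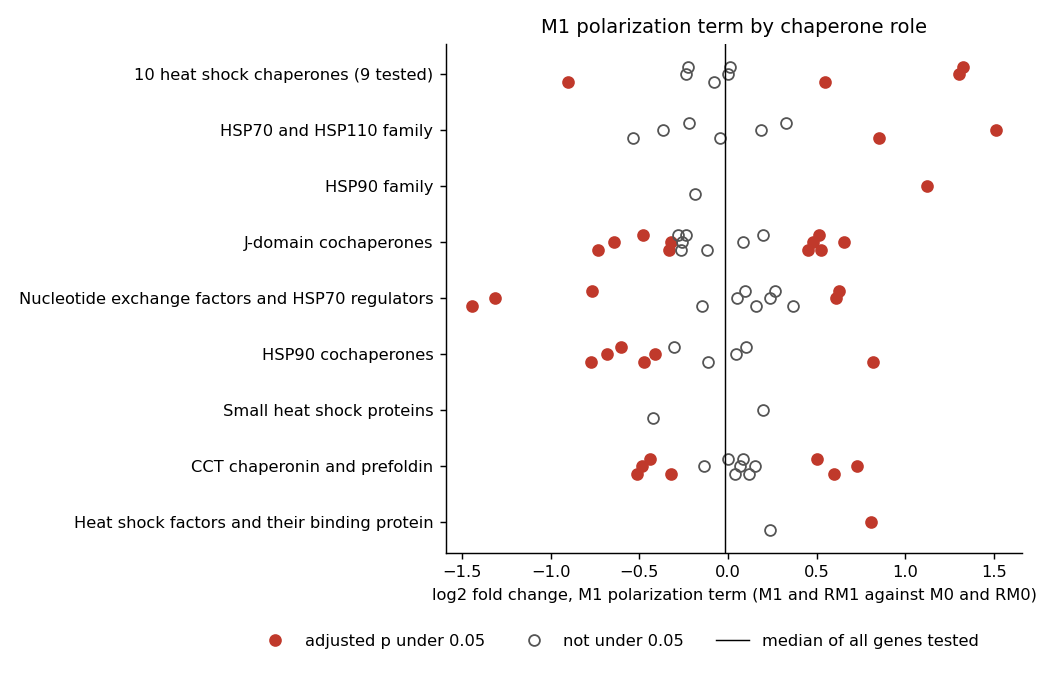
Log2 fold change of the M1 polarization term for the 9 tested heat shock genes and for 67 other chaperones, 1 point per gene, grouped by role, with filled points for adjusted p under 0.05 in edgeR's quasi-likelihood test and a line at the median of all genes tested. Points lie on both sides of the line in most groups, and 5 of 6 filled points of the HSP90 cochaperones lie to its left.

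Genes with patterns like those of the 3 members that varied at least 2-fold were sought by Pearson's r of log2 TMM-scaled CPM over the 6 libraries, among 10182 genes that averaged 50 counts or more. The most alike for Hspa8 were Rplp2 (r = 0.9997), Sdf4 (0.9995) and Srpr (0.9992), and 1212 genes reached 0.95. Srpr had 7130, 7252 and 6973 counts in M0, M1 and M2, and 7310, 7296 and 6849 counts after irradiation, so most of its variation on this scale is that of the scaling factors. For Hspd1 they were Cebpz (0.9984), Wdr75 (0.9980) and Dock9 (0.9974), with 509 genes at 0.95 or above. Cebpz had 1284, 537 and 1313 counts, and 1067, 571 and 1313 after irradiation, low in both M1 libraries like Hspd1. For Hspa1b they were Ier3ip1 (0.9935), Hint3 (0.9767) and Mtfr1 (0.9733), with 26 genes at 0.95 or above. The points share their libraries and scaling, and r over 6 of them is a description.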

How the data were processed

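The 6 tables deposited by the authors hold raw HTSeq counts, not normalized, for 24062 RefSeq genes. The submitters' processing notes name Trimmomatic 0.36, HISAT2 2.2.1, HTSeq 0.11.3 and mm10, and 27 gene symbols had become dates. TMM factors were computed with edgeR 4.0.16 (R 4.3.3) over genes that reached 10 counts in 3 or more libraries, and log2 fold changes with a prior count of 2. Shared effects were fitted with edgeR's quasi-likelihood test with Benjamini-Hochberg adjustment at 0.05, and the script was tested on simulated data. The alternatives were DESeq2 1.42.0, library totals, a prior count of 0.25, a GC trend removed (98.5% of genes had a GC value), 1.5-fold and 4-fold thresholds, other filters and each state left out. Lengths and exons came from GENCODE M21, promoters from RefSeq, and Python 3.11.15 did the rest. The 10 genes, the other lists and the tests were chosen with earlier results of these data known. All 10 genes were named. Other chaperones were named where called at 2-fold or past the adjusted threshold, at most 6 per comparison by size, and the 3 genes most like each member that varied 2-fold. Library totals of 17894937 to 18870516 counts, multiplied by the TMM factors, set the counting intervals of fold changes. These intervals cover counting error only and not the choice of scaling.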

Additional observations from a re-analysis of the deposited data

Results flagged for a closer look

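Hspa1b, the inducible HSP70 gene, lay on opposite sides of 0 after irradiation in different states, with each counting interval excluding 0. It was -0.85 on the log2 scale in RM0 against M0 (40 and 21 counts) and 0.69 in RM2 against M2 (29 and 47 counts), which differ by 1.54. The interval in RM2 against M2, 0.031 to 1.45, nearly reached 0. The 1.54 is the M2 difference already given above, where 2.09% of all genes reached 1. It was -0.92 in RM1 against M1 (75 and 44 counts), which differs from RM2 against M2 by 1.60. These differences were not tested, since each rests on 1 library per condition, and 49.9% of Hspa1b windows are shared with Hspa1a. Hspa8, Hsp90aa1 and Hspd1 also lay on opposite sides of 0 in different states with intervals excluding 0, but less than 1 apart.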

How the results depend on the processing

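With a 1.5-fold threshold the number of the 9 genes called was 1 in RM0 against M0, 3 in RM1 against M1 and 1 in RM2 against M2, against 0, 0 and 0 at 2-fold. It was 4 in M1 against M0 and 3 in RM1 against RM0, against 3 and 1 at 2-fold. The share of all genes called was worked out at 2-fold only, so the counts at other thresholds do not set the chaperones apart. With a 4-fold threshold the number called was 0 in M1 against M0, in RM1 against RM0 and in RM2 against RM0. Without a filter on counts, Hspa1a joined and the number was 1 in RM2 against M2, 2 in RM1 against RM0 and 2 in RM2 against RM0. Hspa1a had at most 4 counts in any library, so these additions state no change. The share of all genes called without the filter was not worked out.

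In the additive model the irradiation term without M1 and RM1 turned to 0.0498 for Hspa8 and -0.0419 for Hsp90aa1. The M1 term of Hsp90aa1 turned to 0.018 with DESeq2's size factors, to 0.0031 without irradiation in the model and to 0.018 in DESeq2's test. With library totals the M1 term of Hspe1 turned to -0.34 and the M2 term of Dnajb1 to 0.055. The cause was not tested. No member passed for irradiation or M2 under any alternative run, while the number of genes passing for irradiation over the whole table, 55 in the model reported, ran from 0 without polarization in the model to 668 without M0 and RM0, with 74 with DESeq2's size factors, 3 with library totals, 156 without the filter, 541 without M1 and RM1, 78 without M2 and RM2 and 115 with DESeq2's test. For M2 it was 22, and 3 with library totals, 56 without the filter, 0 without irradiation and 41 with DESeq2's test.

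No paired analysis was possible because each condition is 1 library with no replicate number to pair or leave out, beyond the pairing by state that the additive model itself holds. Depth limits Hspa1a and Hspa1b most. Differences between single libraries include the spread between wells, pooling and library preparation, none of which was measured.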
